A study of Mus musculus with 3 samples.

Results

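The genes described here are 34 genes of cholesterol and fatty acid synthesis and of their control by the sterol regulatory element binding proteins (SREBPs), followed in mouse liver under warm ischemia and reperfusion. They were chosen by gene symbol, and all 34 were found among the 23361 genes of the files. They comprise 16 sterol synthesis enzymes, 9 fatty acid synthesis enzymes, 7 regulators and 2 genes of lipid handling (Stard4 and Pnpla3). All livers were labelled as coming from male C57BL/6J mice of 8 to 10 weeks, and the study's methods state that the mice were fasted for 12 h and had a midline laparotomy under chloral hydrate. No engineered allele is named. The Sham mice had no vessels occluded and their livers were taken after 90 min. In the WI (warm ischemia) group the portal triad to the left and median lobes was clamped for 90 min, and in the IR group the same clamping was followed by 120 min of reperfusion without further anesthetic. There was 1 library per group. The methods give 6 mice per group, and whether RNA of several mice was pooled is not given in the sources used here. No Sham sample matched the IR sample in time after surgery, so reperfusion and the added time cannot be told apart.

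Expression is given as FPKM, a fragment count scaled by transcript length and by a measure of library size, a scale on which levels can be compared between genes. The study's methods name mapped reads as that measure, which was not tested here. Each FPKM carries lower and upper 95% bounds from Cuffdiff's model of the counts, and these bounds do not cover differences between mice. With 1 library per group, no difference has a replicate check in these data and no p-value is given. The study also ran quantitative PCR on selected genes, with mRNA primers for Lpin1, described below, and for none of the 34 genes. A change is a difference of log2(FPKM + 1), which understates the change of low genes, and changes were computed over the 10792 genes whose FPKM reached 1 in 1 or more of the samples. Of the 34 genes, 33 passed this filter, and Pnpla3 did not. FPKM summed to 712423 in IR liver, against 475754 in Sham and 487912 in WI liver, so orders, directions and the separation of bounds were also computed with FPKM rescaled to a common sum (TPM) and by the median ratio over genes, a step chosen after seeing the data. Values without a named scale are on deposited FPKM.

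The Sham and WI libraries went against their label in the genes that mark sex. Xist, the RNA of the inactive X chromosome, had an FPKM of 18.9 in Sham, 20.1 in WI and 1.29 in IR liver. The Y-linked genes Ddx3y, Kdm5d, Eif2s3y and Uty were at 0 in the Sham sample and at most 0.00849 in the WI sample, while Eif2s3y had 13.2 and Ddx3y 8.58 in the IR sample. In every comparison with the IR sample this difference cannot be told apart from reperfusion.

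Cholesterol is built from acetyl-CoA through mevalonate, squalene and lanosterol, and fatty acids are built from acetyl-CoA through malonyl-CoA. The genes of both routes are controlled by SREBPs, membrane proteins of the endoplasmic reticulum that Scap escorts to the Golgi, where they are cut to release a transcription factor, and the Insig proteins hold Scap back when sterols are plentiful. In liver, Srebf2 is best known for driving the sterol genes, and Srebf1, which responds to insulin and to oxysterol receptors, for driving fatty acid genes.

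Promoter sequences (RefSeq, GRCm38.p6, the assembly called mm10) were found for 29 of the 34 genes, and motifs were searched from 250 bases before to 50 after each start site. SREBPs bind sterol regulatory elements and often act beside NF-Y, a factor that binds CCAAT boxes. A CCAAT box (CCAAT or its complement ATTGG) was found in 26 of the 29 genes, against 41.1% of 27025 genes. All 13 sterol synthesis genes with a promoter held one, as did 6 of 8 fatty acid synthesis genes. The core TCANNCCAC of a sterol regulatory element, searched on both strands, was found in 5 of the 29 genes (Hmgcs1, Acly, Acacb, Elovl5 and Mlxipl), against 4.78% of all genes. An E-box (CACGTG, its own complement) was found in 7, against 8.09%. The sterol regulatory element core was in 1 of 13 sterol synthesis genes (7.69%) and 3 of 8 fatty acid synthesis genes. A match is a run of letters and not a binding site. Printed here are the 250 bases before the start site, with matches of these motifs in capitals, for the sterol enzyme and the fatty acid enzyme with the largest increase in the WI sample (Hmgcs1 and Fasn), for Lss, whose bounds separated on deposited FPKM, and for both Insig genes:
Hmgcs1, chr13:119690101-119690350, plus strand: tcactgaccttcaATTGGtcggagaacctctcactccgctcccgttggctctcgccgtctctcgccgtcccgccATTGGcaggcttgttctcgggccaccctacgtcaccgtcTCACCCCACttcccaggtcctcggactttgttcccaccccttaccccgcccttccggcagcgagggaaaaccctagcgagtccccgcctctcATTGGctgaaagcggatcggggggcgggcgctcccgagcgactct
Lss, chr10:76531355-76531604, plus strand: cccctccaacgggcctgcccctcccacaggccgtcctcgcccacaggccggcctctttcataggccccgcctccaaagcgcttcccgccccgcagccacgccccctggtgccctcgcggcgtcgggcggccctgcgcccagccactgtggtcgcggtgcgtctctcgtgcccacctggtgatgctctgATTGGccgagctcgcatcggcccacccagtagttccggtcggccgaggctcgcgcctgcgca
Fasn, chr11:120824548-120824797, minus strand: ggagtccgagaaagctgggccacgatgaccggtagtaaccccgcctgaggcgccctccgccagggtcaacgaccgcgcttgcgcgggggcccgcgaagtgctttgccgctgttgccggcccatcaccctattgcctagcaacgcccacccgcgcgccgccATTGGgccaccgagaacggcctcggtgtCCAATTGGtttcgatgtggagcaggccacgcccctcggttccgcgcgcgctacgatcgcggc
Insig1, chr5:28071162-28071411, plus strand: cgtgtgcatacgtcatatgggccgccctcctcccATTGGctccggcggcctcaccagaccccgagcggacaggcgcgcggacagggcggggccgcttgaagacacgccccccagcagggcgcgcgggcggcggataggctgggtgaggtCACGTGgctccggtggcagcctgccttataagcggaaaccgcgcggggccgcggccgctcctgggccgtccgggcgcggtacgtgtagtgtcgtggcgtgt
Insig2, distal start site, chr1:121332590-121332839, minus strand: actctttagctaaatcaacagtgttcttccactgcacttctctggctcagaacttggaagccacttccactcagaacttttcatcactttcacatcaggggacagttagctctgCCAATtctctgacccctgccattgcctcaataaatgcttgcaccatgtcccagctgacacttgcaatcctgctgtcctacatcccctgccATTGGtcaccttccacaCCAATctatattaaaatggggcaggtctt
Insig2, inner start site, chr1:121328025-121328274, minus strand: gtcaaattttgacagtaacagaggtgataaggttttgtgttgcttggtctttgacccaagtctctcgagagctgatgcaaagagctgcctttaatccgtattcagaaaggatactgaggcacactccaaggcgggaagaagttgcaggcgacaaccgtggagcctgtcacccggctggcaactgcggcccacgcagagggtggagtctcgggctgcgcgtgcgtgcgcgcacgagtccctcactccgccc
In these stretches Hmgcs1 held 3 CCAAT boxes and the core of a sterol regulatory element. Fasn held 3 CCAAT boxes, 2 of them overlapping on opposite strands, and Lss held 1. Insig1 held a CCAAT box and an E-box. The distal promoter of Insig2 held 3 CCAAT boxes and the inner one no match, and the files give a single FPKM for the gene, so its start sites cannot be separated.

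Most members of both routes had a higher level under warm ischemia than in Sham liver. Of the 33 genes, 31 were higher (30 under both rescalings, where Srebf2 was slightly lower), against 52.5% of all genes and 65.0% of the 3969 genes with a median FPKM of at least 10. The median change of the 33 genes was 0.85, beside 0.02 over all genes. At least 2-fold higher in FPKM + 1 were 12 of the 33, against 0.751% of all genes, and at least 2-fold lower was 1, Insig2, against 1.1% of all genes. The 95% bounds of both samples separated in the higher direction for Lss alone (0.195% of all genes) and in the lower direction for Insig2 alone (0.482% of all genes). The separation of Lss was lost under both rescalings, and that of Insig2 held under both. For the other 31 genes the bounds overlapped.

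**Figure D1:**
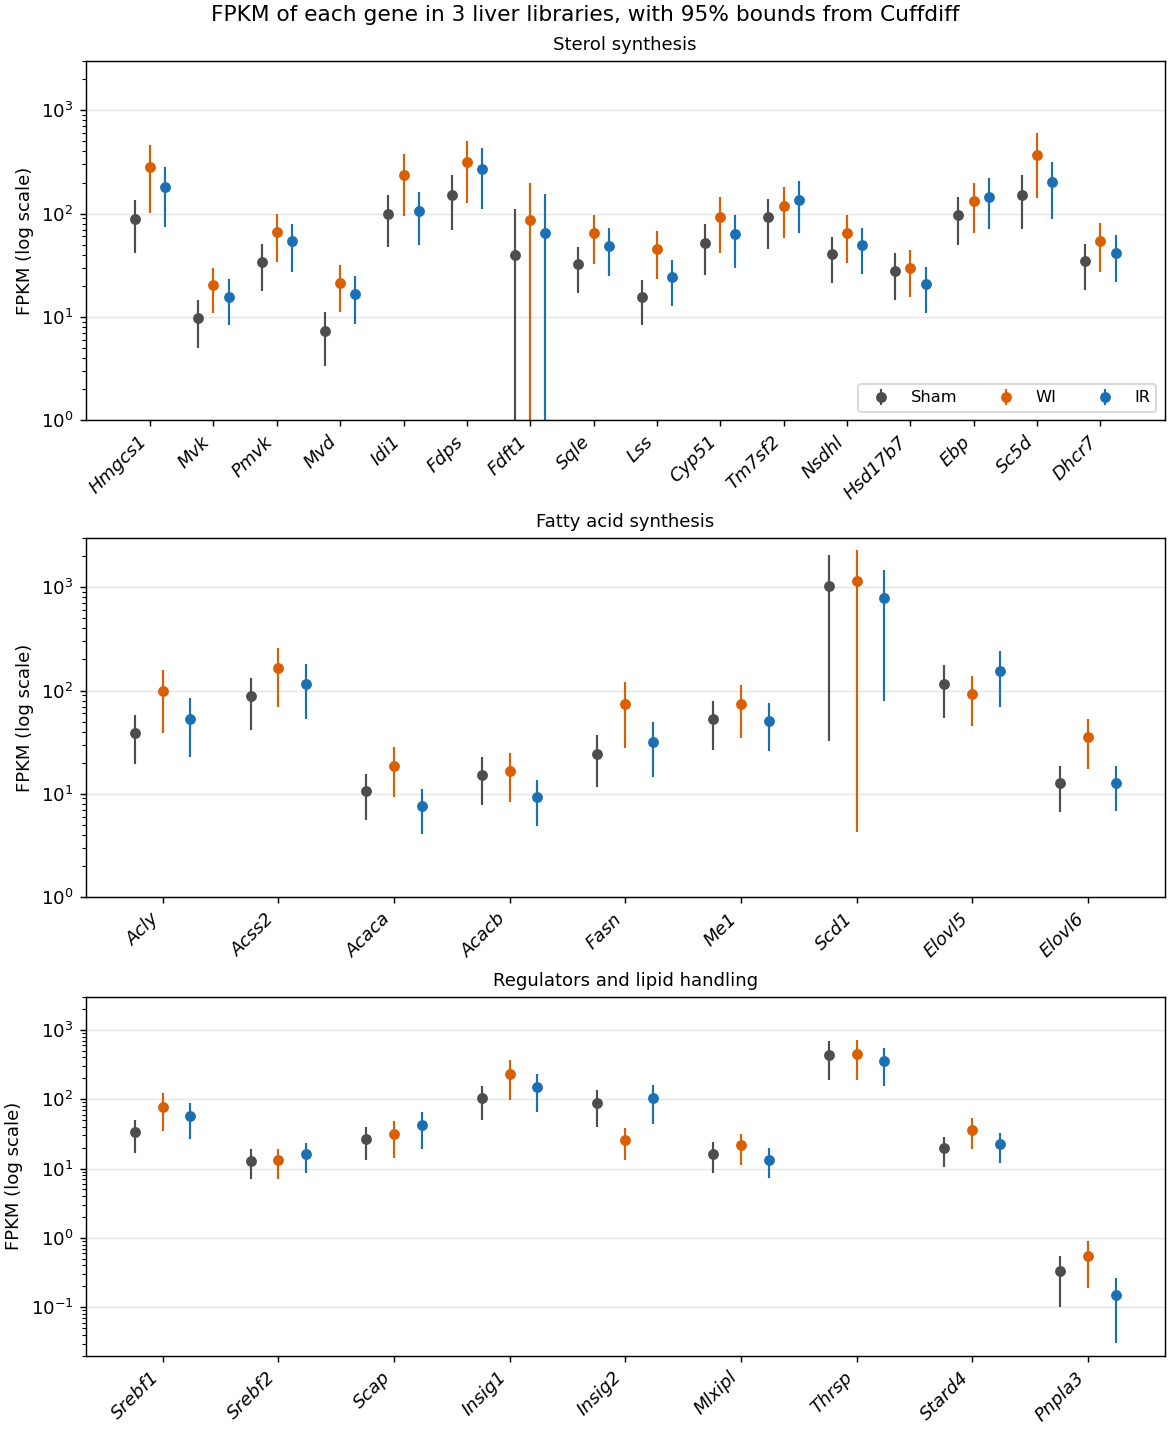
FPKM on a log scale for each of the 34 genes in the Sham, WI and IR samples, with bars for the 95% bounds of Cuffdiff (the bars of Fdft1 reach 0 and are cut at the axis). The WI point is the highest of the 3 for 27 of the 33 genes that passed the filter, against 27.0% of all genes. With TPM it is the highest for 30, against 42.4%. For Insig2 and Elovl5 it is the lowest.

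The enzymes from acetoacetyl-CoA to farnesyl pyrophosphate had some of the largest increases. Hmgcs1, which condenses acetyl-CoA with acetoacetyl-CoA on the way to mevalonate, had an FPKM of 87.7 in Sham liver (95% bounds 41.2 to 134), 281 in WI liver (102 to 460.3) and 179 in IR liver (73.4 to 285). Its change of 1.67 between WI and Sham was exceeded by 17 of the 10792 genes. Mvk, the mevalonate kinase, had an FPKM of 9.701 (4.97 to 14.4), 20.3 (10.9 to 29.6) and 15.7 (8.36 to 23.04) in the same order. Both were lowest in the Sham sample and highest in the WI sample, with overlapping bounds. Pmvk, which adds the next phosphate, had 34.3 (17.96 to 50.6), 67.1 (34.3 to 99.8) and 53.7 (27.4 to 80.03). Mvd, the decarboxylase that makes isopentenyl pyrophosphate, had 7.297 (3.34 to 11.3), 21.4 (11.2 to 31.6) and 16.7 (8.58 to 24.7), with a change of 1.43 between WI and Sham. The upper bound of Mvd in the Sham sample lay just above its lower bound in the WI sample. Idi1, the isomerase of isopentenyl pyrophosphate, had 99.3 (47.1 to 151), 237 (95.6 to 378) and 106 (49.96 to 163), and its IR level was close to its Sham level on this scale, while with TPM it had 209 in Sham, 485 in WI and 149 in IR liver. Fdps, which makes farnesyl pyrophosphate, had 151 (68.6 to 234), 318 (128 to 509) and 269 (110.3 to 428). The IR level of Fdps was nearer to the WI level on this scale and nearer to the Sham level with TPM (318, 652 and 378). These 6 genes had a median change of 1.16 between WI and Sham and of 0.74 between IR and Sham.

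At the next steps, Lss, the lanosterol synthase, lies at chr10:76531627-76562226 in the files (mm10). Its FPKM was 15.7 in Sham liver (95% bounds 8.398 to 22.96), 45.3 in WI liver (23.04 to 67.5) and 24.1 in IR liver (12.8 to 35.4). The WI bounds began just above the end of the Sham bounds, a gap that either rescaling closed, and the change was 1.47. Sqle, the squalene epoxidase, had 32.5 (17.2 to 47.9), 65.2 (32.7 to 97.7) and 48.8 (25.1 to 72.5). Fdft1, the squalene synthase, had 40.0 (0 to 109.9), 87.5 (0 to 196) and 65.1 (0 to 155). The lower bound of Fdft1 was 0 in all 3 samples, the only such gene of the 34, so its order is uncertain.

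The enzymes that turn lanosterol into cholesterol differed more among themselves. Sc5d, a sterol desaturase, had the highest Sham FPKM of the 16 enzymes, with 152 (70.2 to 234), 373 (142 to 605) and 201 (88.2 to 314) in the Sham, WI and IR samples. Cyp51, which removes a methyl group of lanosterol, had 51.99 (25.3 to 78.7), 92.6 (41.4 to 144) and 62.96 (29.8 to 96.1). Nsdhl, a sterol dehydrogenase, had 40.5 (21.4 to 59.6), 64.6 (33.03 to 96.1) and 49.5 (25.8 to 73.2). These genes and Dhcr7 shared the order Sham, IR, WI from lowest to highest, and with TPM the order IR, Sham, WI. Dhcr7, which makes cholesterol in the last step of one branch, had 34.4 (18.1 to 50.7), 53.96 (27.4 to 80.5) and 41.8 (21.7 to 61.96). Tm7sf2, a sterol reductase, had 92.04 (44.96 to 139), 119 (57.5 to 180.2) and 136 (64.5 to 208), and Ebp, a sterol isomerase, had 97.5 (49.6 to 146), 132 (64.7 to 199) and 145 (70.5 to 220.3). Both were highest in the IR sample on deposited FPKM and highest in the WI sample with TPM, with deposited bounds that overlapped in all 3. Hsd17b7, which acts on a sterol keto group, had 27.8 (14.5 to 41.2), 29.8 (15.5 to 44.1) and 20.7 (10.96 to 30.5) and was the only enzyme of the 16 below its Sham level in the IR sample on deposited FPKM, where with TPM 8 of the 16 were (Idi1, Cyp51, Tm7sf2, Nsdhl, Hsd17b7, Ebp, Sc5d and Dhcr7). The 7 genes from lanosterol onward had a median change of 0.64 between WI and Sham, beside 1.11 for the 3 genes of squalene and lanosterol synthesis. This division by step was made after the values had been seen and was not tested.

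**Figure D2:**
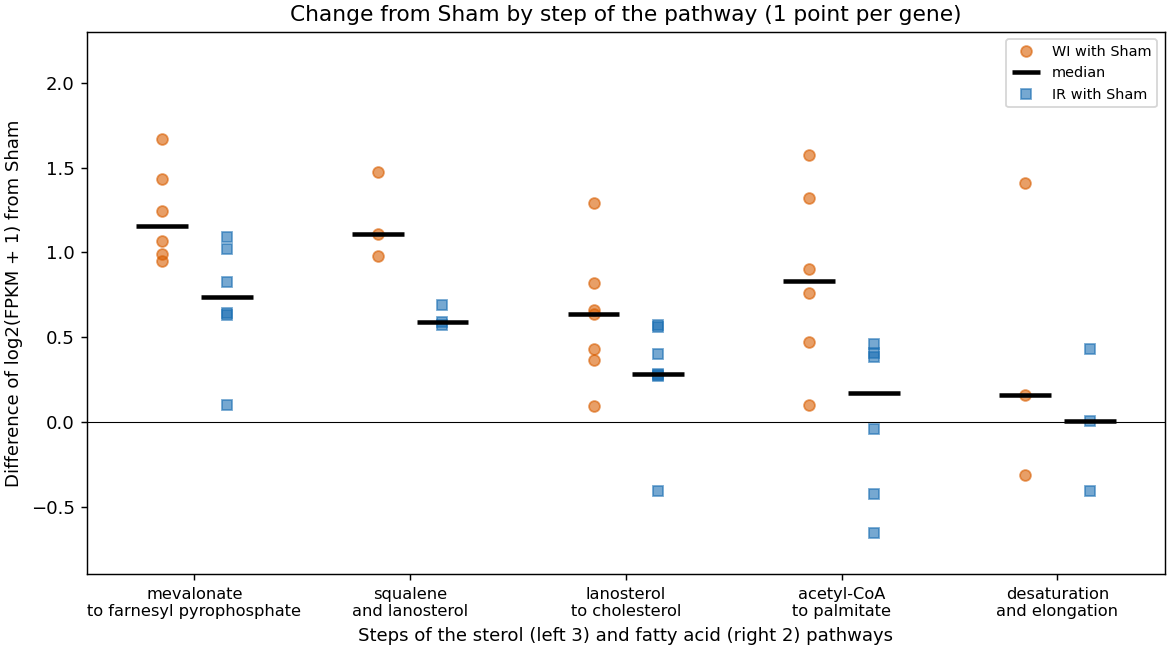
Difference of log2(FPKM + 1) from the Sham sample for each gene in the WI and IR samples, by step of the sterol and fatty acid pathways, with bars at the medians. In the WI sample the medians are 1.16, 1.11 and 0.64 over the 3 steps of sterol synthesis and 0.83 and 0.16 over the 2 steps of fatty acid synthesis.

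All 16 sterol enzymes were higher in the WI than in the Sham sample, 7 of them at least 2-fold, and the median change of the class was 0.99. Their summed FPKM was 974 in Sham, 2008 in WI and 1437 in IR liver, which is 2.06 times the Sham sum in the WI sample and 1.47 times in the IR sample. With TPM the log2 ratio of the sums between IR and Sham was -0.022. No enzyme held more than 18.7% of the sum in any sample.

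Among the fatty acid enzymes, Fasn, the fatty acid synthase, had an FPKM of 24.3 in Sham liver (95% bounds 11.5 to 37.0), 74.3 in WI liver (27.6 to 121) and 31.9 in IR liver (14.5 to 49.4). Its change of 1.58 between WI and Sham was the largest of the class. Acly, which splits citrate to supply cytosolic acetyl-CoA, had 38.6 (19.4 to 57.8), 98.2 (38.5 to 158) and 53.5 (22.7 to 84.2). Elovl6, which extends palmitate, had 12.7 (6.73 to 18.6), 35.3 (17.2 to 53.4) and 12.7 (6.74 to 18.7), so its IR level was at its Sham level on this scale, while with TPM it had 26.7 in Sham, 72.4 in WI and 17.8 in IR liver. All 3 had at least 2-fold more in WI than in Sham liver. Acss2, which makes acetyl-CoA from acetate, had 87.6 (41.6 to 134), 164 (69.8 to 259) and 117 (52.96 to 180.3).

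The acetyl-CoA carboxylases make malonyl-CoA. Acaca, the cytosolic form linked to synthesis, had an FPKM of 10.6 (5.52 to 15.7), 18.7 (9.26 to 28.1) and 7.65 (4.06 to 11.2). Acacb, the form tied to mitochondria and to the control of fatty acid oxidation, had 15.3 (7.77 to 22.8), 16.5 (8.29 to 24.6) and 9.32 (4.91 to 13.7). The ratio of Acaca to Acacb was 0.694 in Sham, 1.14 in WI and 0.821 in IR liver, and both genes were lowest in the IR sample. Scd1, the stearoyl-CoA desaturase, had the highest FPKM of all 34 genes, with 1038 in Sham liver (95% bounds 32.4 to 2043), 1160.1 in WI liver (4.29 to 2316) and 780.5 in IR liver (80.02 to 1481). The width of these bounds leaves the order of its 3 values undecided. Scd1 made up 74.4% of the summed FPKM of the class in the Sham sample, and the sum of the class in the WI sample was 1.24 times the Sham sum. Me1, the malic enzyme that supplies NADPH, had 52.7 (26.5 to 78.8), 73.5 (34.7 to 112) and 51.1 (25.8 to 76.4). Elovl5, which extends polyunsaturated fatty acids, had 115 (54.1 to 176), 92.2 (44.8 to 139.6) and 155 (69.3 to 241) and was lowest in the WI sample. Of these 9 enzymes, 8 had a higher level in WI than in Sham liver, with a median change of 0.76.

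**Figure D3:**
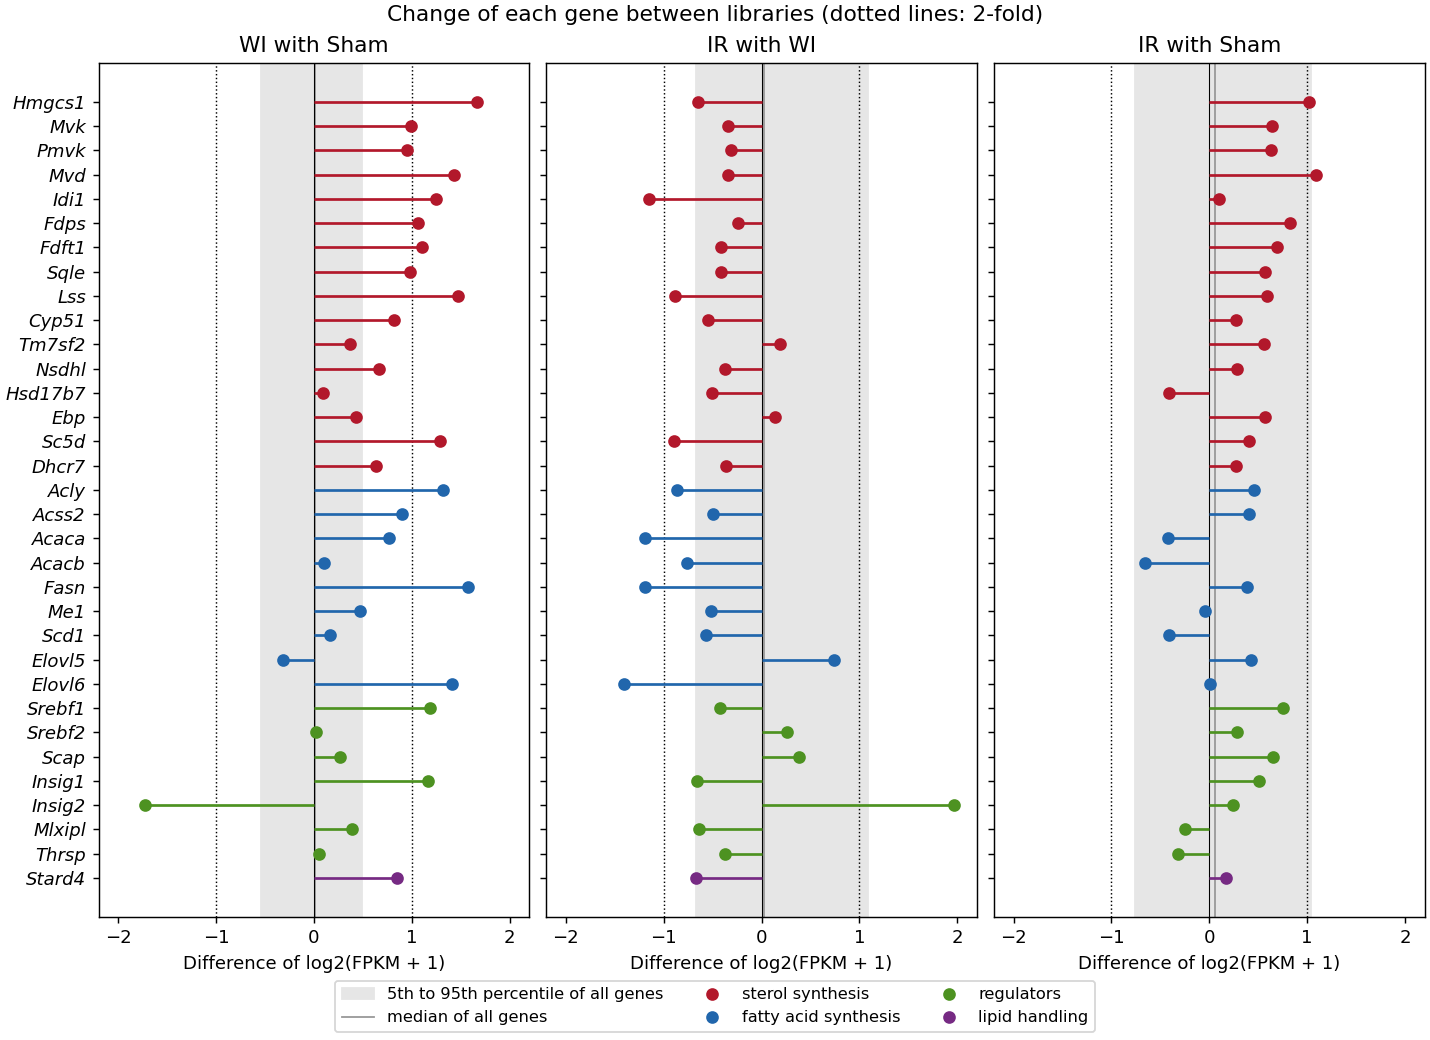
Difference of log2(FPKM + 1) for each of the 33 genes that passed the filter, in the comparisons of WI with Sham, IR with WI and IR with Sham, coloured by role, with the 5th to 95th percentile of all genes in grey and dotted lines at 2-fold. In the first panel all but Elovl5 and Insig2 lie above 0 (under both rescalings Srebf2 would not), and in the second 27 of the 33 lie below 0 (31 with TPM).

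Among the regulators, Insig2 had the largest change. It lies at chr1:121304353-121332589 in the files, and its liver-specific transcript is known to be repressed by insulin. Its FPKM was 87.1 in Sham liver (95% bounds 40.3 to 134), 25.6 in WI liver (13.2 to 38.02) and 103 in IR liver (44.1 to 162). The WI bounds lay below those of both other samples, and with TPM below those of the Sham sample only. Between WI and Sham 25 of the 10792 genes had a more negative change than Insig2 (-1.73), and between IR and WI 181 had a larger increase (1.97 for Insig2). Insig1, itself a known SREBP target, had 103 (49.3 to 157), 233 (95.8 to 371) and 147 (66.3 to 229). The ratio of Insig1 to Insig2 was 1.19 in Sham, 9.11 in WI and 1.43 in IR liver.

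The SREBP genes themselves had different values. Srebf1 had an FPKM of 33.7 (16.6 to 50.8), 77.7 (34.4 to 121) and 57.7 (26.5 to 88.8), with a change of 1.18 between WI and Sham. Srebf2 had 13.04 (6.98 to 19.1), 13.3 (7.09 to 19.5) and 16.1 (8.56 to 23.7), with a change of 0.02 in the same comparison. The ratio of Srebf1 to Srebf2 was 2.58 in Sham, 5.86 in WI and 3.58 in IR liver. The files give 1 value for Srebf1 and do not separate its transcripts, and its locus there also covers the overlapping gene Rai1. Scap, the escort protein, had 26.3 (13.2 to 39.4), 31.8 (14.3 to 49.2) and 41.9 (19.2 to 64.6) and was highest in the IR sample, and with TPM in the WI sample (55.3, 65.1 and 58.8). Mlxipl, which encodes the glucose-responsive factor ChREBP, had 16.2 (8.67 to 23.8), 21.6 (11.4 to 31.8) and 13.5 (7.24 to 19.7). Thrsp, a lipogenic protein that responds to thyroid hormone and carbohydrate, was the most abundant regulator, with 439.9 (187 to 692), 456 (192 to 719) and 352 (156 to 547). The bounds of Scap, Mlxipl and Thrsp overlapped in all comparisons. The 7 regulators had a median change of 0.26 between WI and Sham, with 2 genes at least 2-fold higher (Srebf1 and Insig1) and 1 at least 2-fold lower.

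Of the genes of lipid handling, Stard4, a cytosolic cholesterol carrier, had an FPKM of 19.6 (10.5 to 28.7), 36.1 (18.9 to 53.3) and 22.3 (11.9 to 32.7) and was highest in the WI sample. Pnpla3, a lipid droplet protein, had 0.328 (0.0992 to 0.556), 0.545 (0.193 to 0.898) and 0.149 (0.0306 to 0.268). Its values lie below the filter, and no change is drawn from them.

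After reperfusion most of the genes were lower than in the WI sample. Between IR and WI, 27 of the 33 genes were lower, against 47.5% of all genes (31 with TPM, against 82.5%), with a median change of -0.49 beside 0.03 over all genes. At least 2-fold lower were 4 genes, Elovl6, Fasn, Acaca and Idi1, against 1.43% of all genes. At least 2-fold higher was 1, Insig2, against 5.78% of all genes, and its bounds separated as well (3.22% of all genes), although not with TPM (2.12%). No gene of the 33 had bounds that separated in the lower direction (0.398% of all genes), while with TPM Acaca and Elovl6 did (2.58%). The median change was -0.39 for the sterol enzymes, -0.76 for the fatty acid enzymes and -0.37 for the regulators.

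Compared with Sham, the IR sample held 15 of the 16 sterol enzymes at a higher FPKM, against 54.4% of all genes and 68.2% of those with a median FPKM of at least 10. With TPM 8 of the 16 were higher, against 18.2% of all genes. Of the 33 genes, 2 (Hmgcs1 and Mvd) were at least 2-fold higher, against 5.35% of all genes, and 0 were at least 2-fold lower (2.15% of all genes). No bounds separated in either direction (2.7% of all genes higher, 1.12% lower). The median change was 0.57 for the sterol enzymes and 0.0023 for the fatty acid enzymes, of which 5 were higher and 4 lower (0 higher and 9 lower with TPM). The sterol median exceeded the fatty acid median by 0.57 in this comparison, by 0.37 between IR and WI and by 0.22 between WI and Sham, with no test.

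The counts and medians of the IR sample also depend on how FPKM is scaled. With TPM, the median change of all genes was -0.45 between IR and WI and also between IR and Sham. On that scale 17 of the 33 genes were at least 2-fold lower between IR and WI, against 10.98% of all genes, and 1 was higher, against 3.57%. Between IR and Sham 1 was at least 2-fold lower, under the 14.4% of all genes, and 0 were higher, against 2.96%. The sterol median between IR and Sham was then -0.0016 and the fatty acid median -0.55. Relative to the median of all genes on that scale, an alternative chosen after seeing the data, these medians were 0.45 and -0.099. The excess of the sterol over the fatty acid median between IR and Sham lay between 0.49 and 0.58 in all alternatives run for it. Rescaling moves both medians nearly alike, and no filter removed a gene of either class. Those alternatives could therefore hardly change the excess, and its narrow range is no check of it.

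**Figure D4:**
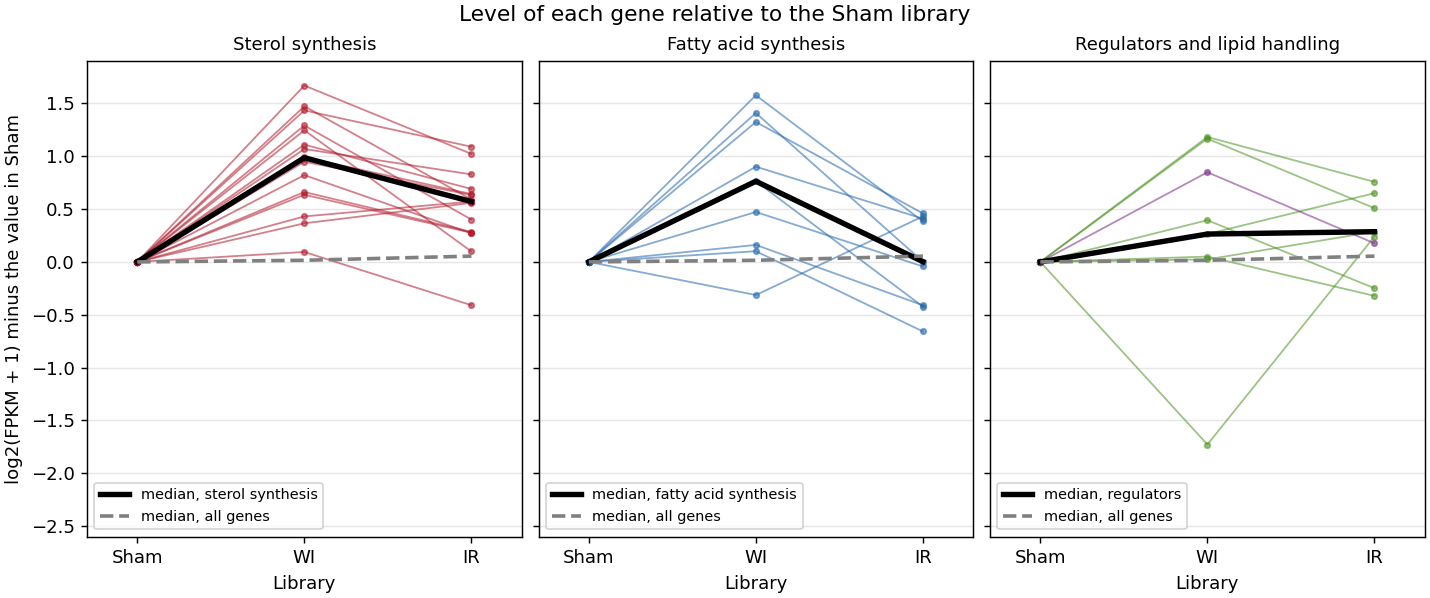
Difference of log2(FPKM + 1) from the Sham sample in the WI and IR samples for each gene (thin lines), with class medians in black and the median of all genes dashed in grey, and Stard4 in purple. The sterol median goes from 0.99 in the WI sample to 0.57 in the IR sample, and the fatty acid median from 0.76 to 0.0023, while with TPM the IR medians are -0.0016 and -0.55.

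In the order of the 3 levels, 20 of the 33 genes were lowest in the Sham sample and highest in the WI sample with the IR sample between, an order found in 10.04% of all genes and in 12.5% of those with a median FPKM of at least 10. The count depends on the scale, with 19 genes after rescaling by the median ratio (8.87% of all genes) and 10 with TPM (6.00%). With TPM another 20 were lowest in the IR sample and highest in the WI sample, an order found in 36.4% of all genes. Of the 20 on deposited FPKM, 13 were sterol enzymes, 4 were fatty acid enzymes (Acly, Acss2, Fasn and Elovl6), and the others were Srebf1, Insig1 and Stard4. On the same scale 7 were highest in the WI and lowest in the IR sample, against 16.9% of all genes. They were Hsd17b7, Acaca, Acacb, Me1, Scd1, Mlxipl and Thrsp. Tm7sf2, Ebp, Srebf2 and Scap were lowest in the Sham and highest in the IR sample, against 25.6% of all genes. With TPM 0 of these 4 were highest in the IR sample. Elovl5 and Insig2 were lowest in the WI sample on all 3 scales. On deposited FPKM they were highest in the IR sample (an order of 18.6% of all genes), but in the Sham sample with TPM (5.31%). Neighbouring levels on deposited FPKM had overlapping bounds, except for Insig2 between the WI and Sham samples.

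A further 33 genes of the pathway, listed for their function, were all found and passed the filter. Between WI and Sham 23 of them were higher and 10 lower, with a median of 0.15 beside 0.02 over all genes. In that comparison 52.5% of all genes were higher, and 65.0% of those with a median FPKM of at least 10. At least 2-fold higher were 0.751% of all genes, and 1.1% were at least 2-fold lower. Mid1ip1, whose protein promotes polymerisation of acetyl-CoA carboxylase, was at least 2-fold higher, with an FPKM of 9.27 (4.602 to 13.9), 33.2 (16.5 to 49.8) and 13.8 (6.87 to 20.7). At least 2-fold lower were Lpin1, a phosphatidate phosphatase of triglyceride synthesis, with 149 (51.8 to 247), 26.1 (12.8 to 39.4) and 23.6 (11.8 to 35.3), and the elongase gene Elovl3, with 3.91 (1.77 to 6.06), 1.31 (0.4503 to 2.17) and 33.3 (17.8 to 48.8). Between IR and WI 26 of the 33 were lower, against 47.5% of all genes, with a median of -0.26 beside 0.03 over all genes. At least 2-fold lower in it were 1.43% of all genes, and 5.78% were at least 2-fold higher. Mid1ip1 and the acyltransferase gene Gpam, with 33.7 (17.2 to 50.1), 49.4 (24.3 to 74.5) and 22.7 (11.97 to 33.5), were at least 2-fold lower in that comparison, and Elovl3 was higher by 3.89. Between IR and Sham 14 were higher and 19 lower, where 54.4% of all genes were higher and 45.6% lower. Elovl3 was at least 2-fold higher (5.35% of all genes) and Lpin1 at least 2-fold lower (2.15%). The counts of these 33 genes were made on deposited FPKM only, and with TPM 82.5% of all genes were lower between IR and WI.

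Markers of the cell types of liver also differed between the samples. Their sums and counts were made on deposited FPKM only. That scale summed to 712423 over all genes in IR liver, against 475754 in Sham liver. Hepatocyte markers summed to an FPKM of 10105 in Sham, 9419 in WI and 9910 in IR liver, and 0 of the 5 that passed the filter differed 2-fold. Cyp2e1, the hepatocyte marker with the highest Sham FPKM (4782), had a lower bound of 0 in all 3 samples. Alb was listed at 0 in all 3 samples, with the status Cuffdiff gives to loci holding too many fragments. Of 5 adipocyte markers, Lep, Retn and Cfd were at 0 in all 3 samples and the sum was at most 0.0790. All 5 Kupffer cell and macrophage markers were lower in the WI than in the Sham sample (sums of 429, 213 and 134). Of these, Emr1 (22.5, 9.74 and 5.06) and Cd5l (203, 90.4 and 58.95) were at least 2-fold lower in the WI sample, and Clec4f (115, 65.3 and 32.7) and Vsig4 (67.8, 35.1 and 12.4) in the IR sample. Marco went the other way after reperfusion (20.9, 12.6 and 25.3) and was highest in the IR sample. All 5 endothelial markers were lower in the WI sample as well (sums of 111, 80.1 and 92.5), and Lyve1 (11.2, 2.73 and 33.4) and Kdr (10.9, 9.45 and 4.796) differed at least 2-fold in a comparison. Neutrophil markers summed to 25.2, 19.1 and 457, with S100a8, S100a9, Csf3r and Retnlg at least 2-fold higher in the IR sample and Mpo at 0 there. Stellate cell markers summed to 138, 97.8 and 102, with Lrat (4.96, 4.12 and 1.46) at least 2-fold lower in the IR sample, and cholangiocyte markers to 2.48, 3.29 and 6.92, with Sox9 (0.275, 0.351 and 1.91) at least 2-fold higher there. In bulk tissue, fewer cells of a type and less RNA per cell cannot be told apart, and the part of these shifts in the levels of the synthesis genes was not tested.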

How the data were processed

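One RNA-seq library each of Sham, WI and IR mouse liver was analysed. The authors mapped reads to mm10 with TopHat2 2.0.9, and the deposited tables hold FPKM per gene from Cuffdiff (Cufflinks 2.0.2) with 95% bounds and a status. The files hold no counts, so depth per gene is unknown, and whether counting used strand is not given in the sources used here. Low values were used to estimate the worth of 1 fragment in the IR sample relative to the WI sample. Over 1956 genes with lower bounds of 0 in both, the commonest ratio of IR to WI was about 1.41. That ratio rests on 98 of these genes, in a bin of 0.02 on the log2 scale.

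FPKM + 1 (pseudocount 1) was put on the log2 scale and compared in 3 pairs over genes whose FPKM reached 1 in any library. A 2-fold limit and separation of the bounds were counted, without p-values. The 34 genes and all lists were chosen with earlier results of these data known. Genes were described with all values where FPKM + 1 differed at least 1.5-fold in a comparison or where they were highest or lowest of their class in the Sham sample, and up to 3 others of a class were given as examples (Tm7sf2, Hsd17b7, Ebp and Me1). Other pathway genes and markers were named where it differed at least 2-fold, and markers also where a defining one was at 0. Marco was added because it went against the other Kupffer cell markers in the IR sample. Loci in the files start at 0-based positions and are given here counted from 1. A locus can cover an overlapping neighbour, whose fragments may then be divided between genes. Alternatives were other pseudocounts, filters, fold limits and scalings. Computation was done with pandas 2.3.3 and numpy 2.4.6 under Python 3.11.15, figures were drawn with matplotlib 3.10.9, and the code was tested on simulated data.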

Additional observations from a re-analysis of the deposited data

How the results depend on the processing

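No paired analysis was possible because each group has 1 library, and for the same reason no replicate could be left out. Between WI and Sham the class medians ranged from 0.95 to 1.03 for sterol synthesis, from 0.71 to 0.82 for fatty acid synthesis and from 0.19 to 0.27 for regulators. Rescaling to a common sum (TPM) moved the comparisons with the IR sample. Between IR and Sham the medians were then -0.0016 (sterol), -0.55 (fatty acid) and -0.27 (regulators), and between IR and WI -0.94, -1.30 and -0.92. The log2 ratios of summed FPKM became -0.022 (sterol), -0.78 (fatty acid), -0.56 (regulators) and -0.41 (lipid handling) between IR and Sham, and -1.03, -1.05, -0.78 and -1.25 between IR and WI. With TPM 0 genes were at least 2-fold higher (2.96% of all genes) and 1 lower (14.4%) between IR and Sham, and 17 were lower between IR and WI (10.98%). Rescaling by the median ratio left 1 gene higher between IR and Sham, as did TPM centred on the median of all genes, chosen after seeing the data. At 1.5-fold, 21 genes were higher between WI and Sham (3.14% of all genes), 9 higher (14.3%) and 1 lower (9.49%) between IR and Sham, and 2 higher (12.4%) and 12 lower (7.40%) between IR and WI, so the 1 lower and the 2 higher lie under the share of all genes. At 4-fold there were 0 in either direction in all 3 comparisons. The mean in place of the median gave 0.07 for the regulators between IR and WI. The cause of these shifts was not tested beyond the construction of each alternative. Among values of single genes under alternatives, 544 moved by less than 1 SD from Cuffdiff's bounds and 50 by more, and the sign differed for 25 of these values, 21 of them under TPM. Among class values the sign differed for 10, 6 of them under TPM. The lack of counts and of replicates limits every comparison.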
